A study of Mus musculus with 2 samples.

Results

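Hemidesmosomes are the junctions by which basal keratinocytes hold on to the basement membrane, and laminin-332 is the basement membrane protein they bind. In a classical hemidesmosome the integrin alpha6 beta4 and collagen XVII cross the cell membrane, and the plakins plectin and the epithelial form of dystonin (BPAG1e) tie them to keratin filaments inside the cell. Laminin-332 is a trimer with an alpha3 and a beta3 chain among its parts, and outside hemidesmosomes keratinocytes also bind it through the integrin alpha3 beta1. In the hair follicle these genes are known for the outer root sheath and the basal cells of the bulb, which face the basement membrane. Inherited loss of several of them causes epidermolysis bullosa, in which the epithelium comes away from the dermis.

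The set described here consists of 9 genes, Itga3, Itga6, Itgb1, Itgb4, Col17a1, Dst, Plec, Lama3 and Lamb3, out of 18193 genes named on the arrays. The members, and the gene lists set beside them below, were chosen with earlier results of these data known, so their counts are description. Given the members, probe sets were found by gene symbol, with no use of signal. All 23 probe sets annotated to exactly 1 of these symbols were taken, out of 45037 non-control probe sets. A probe set is the group of oligonucleotides that together read 1 stretch of RNA. One further probe set, annotated to both Parp10 and Plec, was left out because its gene is not settled. Itga3 and Itgb1 encode the receptor of focal adhesions, so that the set covers adhesion to laminin-332 and not hemidesmosomes alone.

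RNA came from mouse hair follicles at postnatal day 10. Wild-type mice supplied 1 Affymetrix array and mice with a dnFGFR2-IIIb transgene the other. The transgene is named for FGFR2-IIIb, the epithelial receptor for several fibroblast growth factors. For each array about 300 follicles were pooled, with about 100 from each of 3 mice of separate litters. The labels do not give the strain, the sex or the promoter that drives the transgene. The comparison asks which genes differ in signal between the transgenic and the wild-type follicles. With 1 array per group there was no replicate spread and no test, and the mice within a pool cannot be told apart, so every ratio describes these 2 arrays.

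Signals are linear intensities in arbitrary units, scaled to the same trimmed mean on both arrays. A signal counted as measured above a floor of 10.5, the 40th percentile of both arrays. The floor was exceeded by 58.7% (wild-type) and 61.3% (transgenic) of probe sets. The pools differed in sex-linked RNA, with Xist at 352 in wild-type and 1146 in transgenic follicles and the Y-linked Eif2s3y at 191 and 0.40, and the part of this difference in the ratios below was not tested. Hair keratins were bright on both arrays, as in Krt31, a keratin of the hair shaft (11688 and 11946), and Krt71, a keratin of the inner root sheath (9728 and 10171). Krt5 and Krt14, the keratins of basal cells to whose filaments hemidesmosomes attach, read 3943 and 3619 and 4474 and 3954, again wild-type before transgenic, with log2 ratios of -0.12 and -0.18.

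Most of the adhesion genes read slightly lower on the transgenic array, and none passed 2-fold with both signals above the floor. Of the 9 genes, each taken at its brightest probe set, 7 had a ratio of transgenic to wild-type signal under 1 and 2 had a ratio above 1. Their median log2 ratio was -0.22, beside 0.01 over the 14045 genes above the floor on at least 1 array, of which 48.7% had a ratio under 1. Itgb4 (1.67-fold lower) and Lama3 (1.37-fold lower) stood lowest among the 8 genes measured on both arrays. Lamb3 was at least 3.36-fold lower, its transgenic signal being under the floor on which this size rests, whereas Itga6 and Col17a1 had ratios just above 1. In bulk RNA, fewer basal cells and less RNA per cell cannot be told apart.

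Both of the 2-fold counts were 0 among the 8 member genes above the floor on both arrays, 0 higher and 0 lower. Over all 11565 such genes, 1.6% passed 2-fold upward and 1.58% downward. Counting bounds against the floor, 1 of 9 member genes was at least 2-fold lower, beside 2.39% of all genes above the floor on at least 1 array. The error of a single ratio was taken from genes with several probe sets, as the SD of the log2 ratios of probe sets of the same gene. It was 0.50 for dim, 0.38 for middle and 0.35 for bright genes, in tertiles of brightness. This SD, called technical here, also holds differences between bright and dim probe sets of a gene, and any between its transcripts. It leaves out differences between mice and any error that the probe sets of a gene share. Of the 8 genes measured on both arrays, 2 had a log2 ratio larger than 1 such SD, namely Itgb4 and Lama3, and 0 larger than 2. Over all 11565 such genes, 24.5% passed 1 SD and 4.44% passed 2 SD, so the share of members past 1 SD is near the background.

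**Figure D1:**
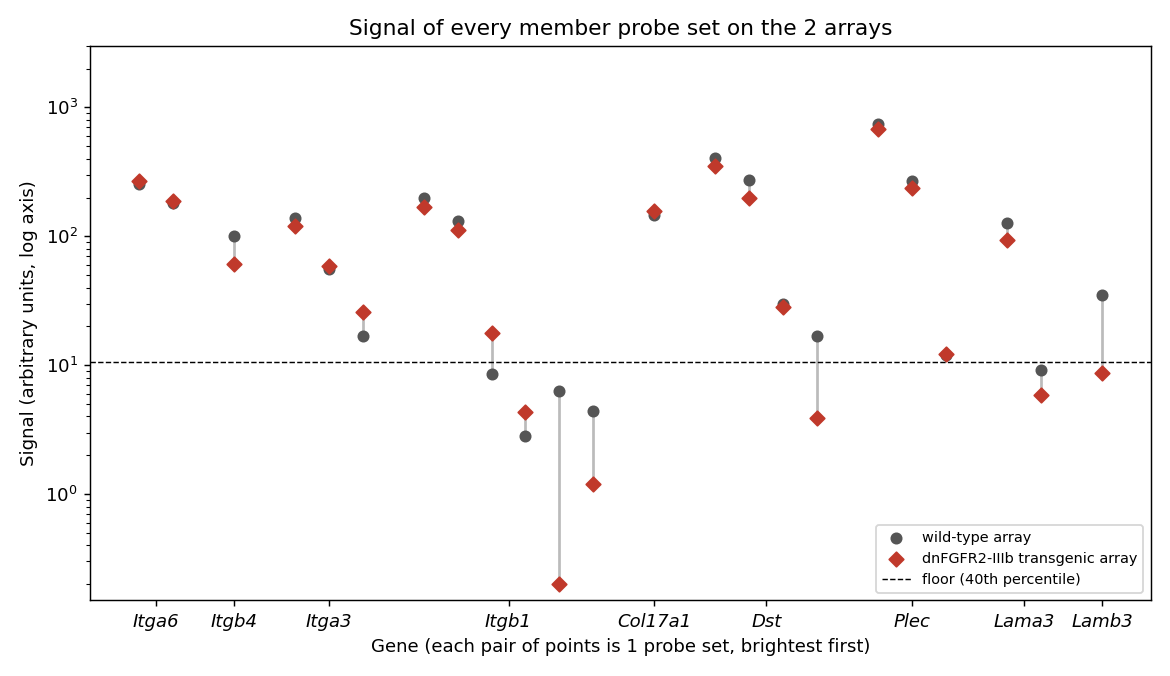
Signal of each of the 23 probe sets on the wild-type array (grey circles) and the transgenic array (red diamonds), in arbitrary units on a log axis, with the floor of 10.5 as a dashed line. The points of most bright probe sets nearly coincide, while those of Itgb4 (101 and 60.8) and Lamb3 (35.3 and 8.70) are apart.

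Of the chains of the alpha6 beta4 integrin, the laminin receptor of the hemidesmosome, alpha6 read nearly the same on both arrays. The beta4 chain read lower on the transgenic array, at a single probe set. Itga6, which encodes the alpha6 chain, read 255 in wild-type and 267 in transgenic follicles at 1 probe set and 183 and 188 at the other. These are log2 ratios of 0.06 and 0.04, and both are small beside the SD of 0.35 to 0.38 for genes of this brightness. Itgb4 encodes the beta4 chain, whose long cytoplasmic tail binds plectin. Its only probe set, 1427387_a_at, read 101 in wild-type and 60.8 in transgenic follicles, a log2 ratio of -0.74 ± 0.38 (technical SD).

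Itgb4 was thus the lowest of the members measured on both arrays. At a threshold of 1.5-fold it was the only member gene called lower, beside 6.78% of all genes. Among the 3855 genes of its own brightness tertile, 2.39% had a ratio as low or lower. The log2 ratio of Itgb4 lay 0.80 below that of Itga6, which is 1.57 times the combined technical SD of 0.51. With 1 array per group, this gap does not show that the chains differ. The beta4 chain pairs only with alpha6, whereas alpha6 also pairs with the beta1 chain. No second probe set of Itgb4 was there to repeat the reading.

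The alpha3 beta1 integrin, which binds the same laminin from focal adhesions, gave smaller differences at its bright probe sets, while 1 dim probe set of each chain read higher in transgenic follicles. Itga3 encodes the alpha3 chain and read 138 in wild-type and 119 in transgenic follicles at its brightest probe set, a log2 ratio of -0.21. A second probe set read 56.2 and 59.1 (log2 ratio 0.07), and the remaining, dim one read 16.9 and 26.0 (log2 ratio 0.62). The probe sets of Itga3 therefore did not share a direction, and the brightest differed by less than the technical SD of 0.38.

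Itgb1 encodes the beta1 chain, the common partner of many integrin alpha chains and expressed in most cell types. Its probe set 1452545_a_at read 197 and 169, and 1426918_at read 131 and 113. The log2 ratios of -0.22 and -0.21 were nearly the same, though each was smaller than the SD. The other 4 probe sets of Itgb1 were at most 8.50 on the wild-type array, and 1427771_x_at alone exceeded the floor on the transgenic array, at 17.9, a bound of at least 1.70-fold higher (log2 ratio 0.77). The log2 ratios of Itgb1 and Itga3 at their brightest probe sets differed by 0.01, far less than their combined SD of 0.53.

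**Figure D2:**
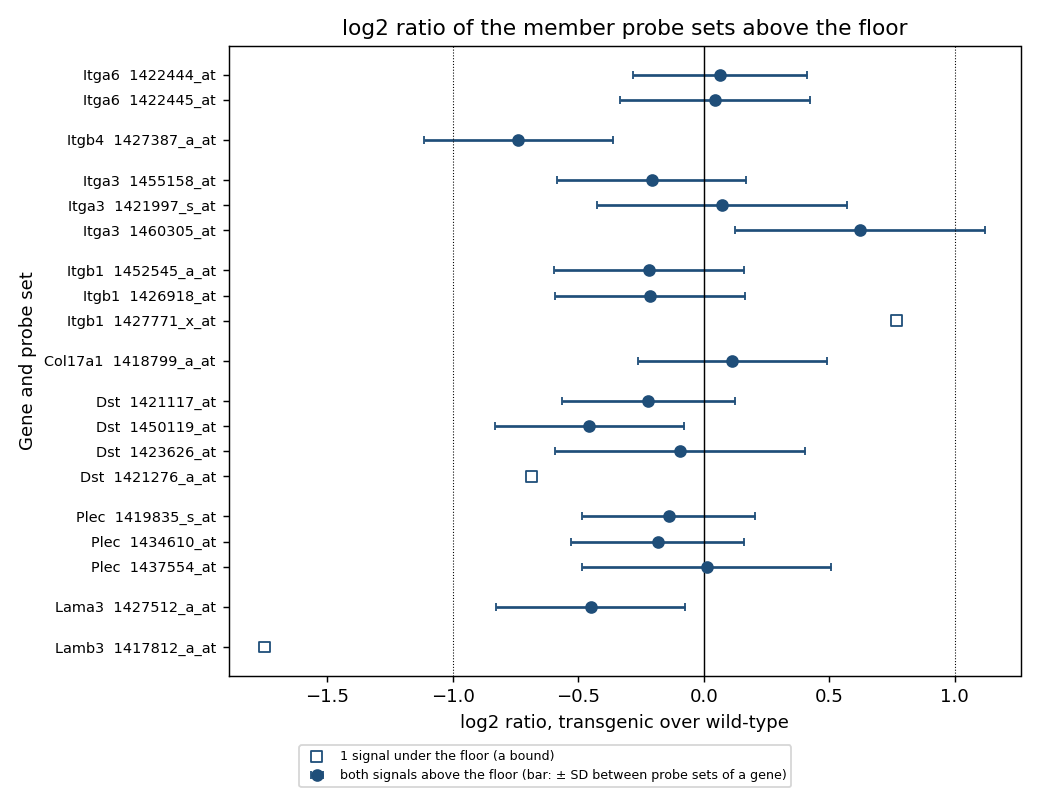
log2 ratio of transgenic to wild-type signal for the 19 member probe sets above the floor on at least 1 array, with bars of ± 1 technical SD for their brightness and open squares for bounds. The bar of Itgb4 (-0.74) does not reach 0, nor do those of Lama3 (-0.45), the probe set of Dst at -0.46 and the dim probe set of Itga3 at 0.62.

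Col17a1, the collagen XVII of the hemidesmosome also known as BP180, had the highest ratio of the 9 genes at their brightest probe sets. It read 145 in wild-type and 157 in transgenic follicles at its only probe set, a log2 ratio of 0.11 ± 0.38 (technical SD). The difference is well within that SD. The log2 ratio of Itgb4 lay 0.85 below that of Col17a1, 1.60 times the combined SD of 0.53. These are the lowest and the highest of the 8 members measured on both arrays, so this gap is the widest among them. It does not show that the genes of these neighbours in the junction differ.

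Dst encodes dystonin, a giant cytoskeletal linker made in several forms, of which the epithelial BPAG1e belongs to hemidesmosomes and others to neurons and muscle. RefSeq lists 2 start sites for Dst in the table used here, and their sequences are shown because the probe sets of this gene were annotated to different transcripts. Each window runs from 250 bases before to 50 bases after the start, on the plus strand of assembly GRCm38.p6, and capitals mark GC boxes, the letters GGGCGG on either strand. The upstream window lies at chr1:34011345-34011644 and the downstream window at chr1:34160010-34160309.
Dst upstream start: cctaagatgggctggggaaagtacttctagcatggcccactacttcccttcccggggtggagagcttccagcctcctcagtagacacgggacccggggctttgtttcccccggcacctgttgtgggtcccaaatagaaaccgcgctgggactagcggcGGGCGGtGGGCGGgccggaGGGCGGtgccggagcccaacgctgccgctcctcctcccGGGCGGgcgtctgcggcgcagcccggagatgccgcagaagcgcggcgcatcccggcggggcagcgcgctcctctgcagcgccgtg
Dst downstream start: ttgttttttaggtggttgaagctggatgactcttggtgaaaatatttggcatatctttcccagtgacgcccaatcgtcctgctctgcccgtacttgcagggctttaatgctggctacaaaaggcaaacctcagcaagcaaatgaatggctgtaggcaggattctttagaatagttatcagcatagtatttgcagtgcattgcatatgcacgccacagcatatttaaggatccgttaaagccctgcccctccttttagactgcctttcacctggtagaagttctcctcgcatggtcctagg

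The upstream window of Dst is 70.3% G and C and holds 4 GC boxes, and the downstream window is 46.0% G and C and holds 0. Of all 32851 windows of this length in the table, 35.7% hold at least 1 GC box. Which start each probe set reads is not recorded in the files. Dst read 407 in wild-type and 349 in transgenic follicles at 1421117_at (log2 ratio -0.22), and 274 and 200 at 1450119_at (log2 ratio -0.46 ± 0.38, technical SD). These bright probe sets are annotated to the same transcript, and both were lower in transgenic follicles, 1450119_at by more than 1 SD. Another, 1423626_at, read 30.0 and 28.1 (log2 ratio -0.09). The probe set annotated to another Dst transcript, 1421276_a_at, read 16.9 and 3.90, close to and under the floor.

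Plec encodes plectin, the linker between the beta4 chain and keratin filaments, which is also made in muscle and many other tissues. It read 743 in wild-type and 674 in transgenic follicles at 1 probe set, 271 and 238 at another and 12.1 and 12.2 at a dim one. The log2 ratios of -0.14, -0.18 and 0.01 were all smaller than the technical SD. The ratios of Dst and Plec at their brightest probe sets differed by 0.08 on the log2 scale, against a combined SD of 0.49.

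The laminin chains stood at the low end of the set. Lama3, the gene of the alpha3 chain, read 127 in wild-type and 93.1 in transgenic follicles at 1427512_a_at, a log2 ratio of -0.45 ± 0.38 (technical SD). Of the genes in its brightness tertile, 8.59% had a ratio as low or lower. Its other probe set did not reach the floor, at 9.20 and 5.90.

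Lamb3, the gene of the beta3 chain, was dim at its only probe set, which read 35.3 in wild-type and 8.70 in transgenic follicles. Against the floor it was at least 3.36-fold lower (log2 ratio -1.75 or less). This size rests on the floor: with the floor at the 60th percentile, 27.7, the log2 ratio became -0.35, and with the floor at the 20th percentile, 2.80, both signals counted as measured and the log2 ratio was -2.02. As Lamb3 is the member farthest from a ratio of 1, the upstream of its 2 overlapping start-site windows is shown, chr1:193301744-193302043 on the plus strand of GRCm38.p6. No capitals appear because it holds no match to the AP-1 motif TGANTCA, the ETS motif CCGGAA or the GC box on either strand.
Lamb3 start: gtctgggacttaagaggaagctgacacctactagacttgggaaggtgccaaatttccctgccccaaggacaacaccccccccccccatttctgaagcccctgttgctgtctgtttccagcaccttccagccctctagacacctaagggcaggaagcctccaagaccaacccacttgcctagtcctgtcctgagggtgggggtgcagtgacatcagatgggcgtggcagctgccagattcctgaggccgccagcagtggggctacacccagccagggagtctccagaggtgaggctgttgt

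AP-1 and ETS factors are known as nuclear targets of receptor tyrosine kinase signalling, which is why these motifs were searched. The search covered 8 RefSeq windows of 5 members, Itga3, Itgb1, Col17a1, Dst and Lamb3. It left out all windows on a single chromosome, and no window of Itga6, Itgb4, Plec or Lama3 was searched. The shares over all windows were counted without that omission. An AP-1 match was found in 1 of the 8 windows, from Itga3, beside 7.81% of all windows, and an ETS match in 2 of the 8, from Itga3 and Itgb1, beside 14.9% of all windows. The windows of Lamb3, the lowest member, and of Col17a1, the highest at its brightest probe set, held none of the 3 motifs. These are counts of letters in short windows and say nothing of the factors.

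**Figure D3:**
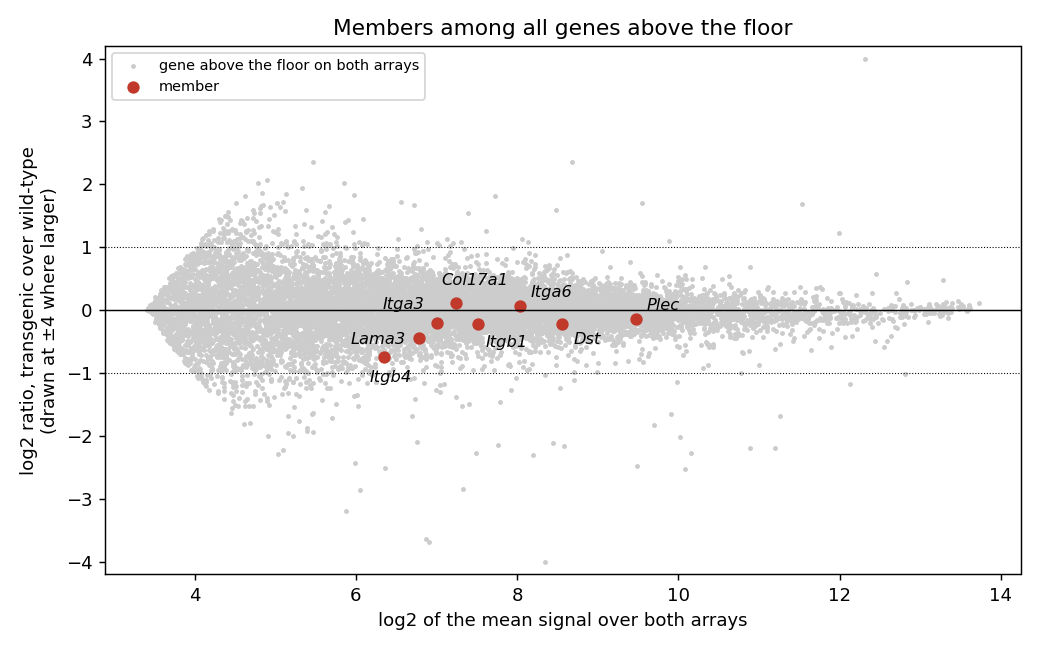
log2 ratio of transgenic to wild-type signal against the log2 mean signal for the 11565 genes with both signals above the floor (grey), with the 8 members among them in red and dotted lines at 2-fold. All 8 lie within the lines, from Itgb4 at -0.74 to Col17a1 at 0.11.

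The direction of the smaller ratios depended on how the arrays were scaled. With equal medians all 9 genes had a ratio under 1, beside 64.2% of all genes, and the members' median log2 ratio became -0.36. With equal spiked hybridisation controls, 6 did, beside 28.2% of all genes, and the median became -0.03. The distance between the members' median and that of all genes moved less, being -0.23 as reported, -0.23 with equal medians and -0.22 with equal spiked controls. When a gene's probe sets were averaged instead of taking the brightest, 5 of the 9 genes had a ratio under 1 and the distance was -0.13. Under the alternative scalings run, Itgb4, Dst, Lama3 and Lamb3 had a ratio under 1, though that of Dst with equal spiked controls was close to 1 (log2 ratio -0.03). Col17a1 and Itga6 went under 1 with equal medians and Plec above 1 with equal spiked controls, by shifts that all genes share. Averaging probe sets turned Itga3 and Itgb1 to log2 ratios of 0.16 and 0.11. The log2 ratio of Itgb4 was -0.88 under equal medians and -0.55 under equal spiked controls, its lowest and highest values, and that of Lama3 was -0.59 and -0.26.

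**Figure D4:**
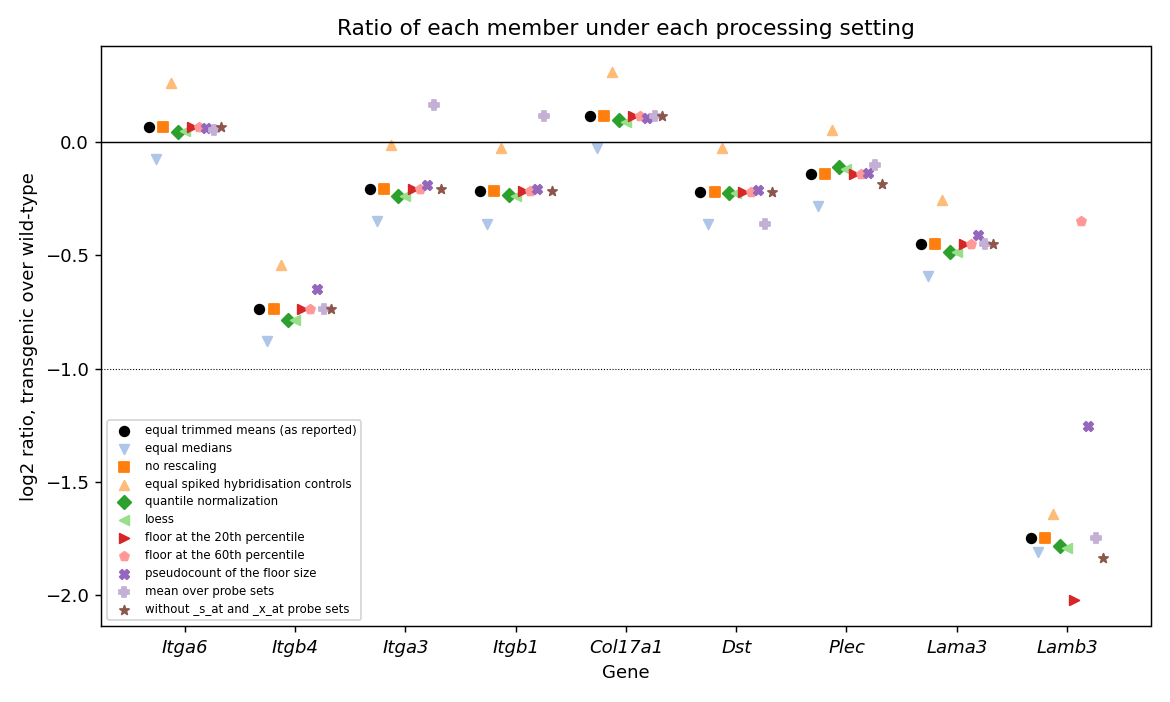
log2 ratio of each member under the reported setting (black circles) and 10 alternatives, with a dotted line at 2-fold lower. Itgb4, Lama3 and Lamb3 lie under 0, and Dst nearly reaches it with equal spiked controls (-0.03), while Lamb3 moves from -2.02 to -0.35 with the floor.

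Other genes of the basement membrane and of integrin adhesion went both ways. Of 35 such genes, 32 have a probe set and 31 exceeded the floor on at least 1 array, with 21 ratios under 1, 10 above 1 and a median log2 ratio of -0.09, which became 13 under 1, 18 above 1 and 0.10 with equal spiked controls. With both signals above the floor, 1 was at least 2-fold higher and 0 were lower. The higher one was Col7a1, the collagen of the anchoring fibrils that fix the basement membrane to the dermis, which was dim at 12.0 and 29.1 (log2 ratio 1.28 ± 0.50, technical SD). Col4a6, a chain of basement membrane collagen IV, was at least 3.53-fold higher, at 37.1 in transgenic follicles and under the floor in wild-type ones.

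The lower ones included Lamb1, the beta1 chain found in laminins other than laminin-332, which read 493 and 301 (log2 ratio -0.71) and gave -0.18 and -0.38 at the remaining probe sets measured on both arrays. Tgfbi, an extracellular matrix protein that binds integrins, read 39.2 and 19.8 (log2 ratio -0.99, and -0.18 and -0.55 at 2 others). Itgb6, the beta chain of an epithelial integrin, read 27.3 and 16.9 (log2 ratio -0.69) but had 0.44 at its other probe set. Cd151, the tetraspanin that associates with the laminin-binding integrins, read 794 and 1280 at its brightest probe set (log2 ratio 0.69), while its other 3 bright probe sets gave log2 ratios from -0.30 to -0.15 and a dim one -0.95. Of these genes Lamb1 alone was bright with every probe set measured on both arrays going 1 way. A further, dim probe set of Lamb1 exceeded the floor on the transgenic array alone, at 17.0, a bound of at least 1.62-fold higher.

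Markers of the cell types that can carry these genes moved with the comparison in different ways. Of 8 markers of basal and outer root sheath keratinocytes, 7 had a ratio under 1, with a median log2 ratio of -0.16 (3 of 8 and 0.03 with equal spiked controls), and their summed signal was 14897 in wild-type and 12610 in transgenic follicles. The lowest were Krt17 (log2 ratio -0.45, and -0.04 at its other probe set) and Krt15 (-0.42), both keratins of the outer root sheath. These signs rest on the brightest probe sets. The other probe sets of Trp63 ranged from -0.28 to 0.75, and those of Sox9 gave 0.16 and 0.25. Cdh3, above 1 at its brightest probe set, had -0.16 at the other, and the other measured probe sets of Krt14 and Lgr5 were under 1. The log2 ratio of Itgb4 lay 0.56 below that of Krt14 and 0.61 below that of Krt5, which is 1.09 and 1.20 times the combined SD of 0.51. The part of these keratinocyte differences in the members' ratios was not tested.

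Schwann cells also express the alpha6 beta4 integrin. Of 8 Schwann cell and nerve markers, 6 have a probe set and 5 exceeded the floor, with 4 ratios under 1, a median log2 ratio of -0.81 and a summed signal of 255 and 170. S100b read 45.3 and 21.7, Ngfr 54.2 and 27.7 and Sox10 63.6 and 42.9. Mbp, a myelin protein of the same list, went the other way at its representative probe set (39.1 and 49.2) and both ways at others, and Cdh19 was under the floor on both arrays. Their part in the ratio of Itgb4 was not tested. Markers of fibroblasts and dermal papilla, which express Itgb1, summed to 2185 and 2988, most of the rise being in Dcn (985 and 1590). Their median log2 ratio was 0.19, with 5 ratios above 1 and 3 under 1, those of Alpl (45.5 and 26.9), Lum and Pdgfra. With equal medians that median was 0.04, with 4 ratios on each side of 1, and with equal spiked controls it was 0.38. Muscle markers, of interest because muscle makes plectin and dystonin, were led by smooth muscle actin, Acta2 (933 and 752). Acta1, skeletal muscle actin, was at least 3.55-fold higher at 37.3, and Des, Ckm and Tnnt3 were under the floor on both arrays. Endothelial markers summed to 109 and 119, with Cdh5 at 13.7 and 42.3 (3.09-fold higher), Cldn5 at 41.4 and 27.4 and Pecam1 under the floor on both. Of the 5 melanocyte markers, 4 had a ratio under 1 (median log2 ratio -0.28). With equal medians 5 did (median -0.42), and with equal spiked controls 3 did (median -0.09). All 7 measured keratins and other markers of hair shaft and inner root sheath had a ratio above 1 (median 0.03, or -0.11 with equal medians). The suprabasal epidermis list gave 3 ratios above 1 and 1 under 1, with Krt1 and Flg under the floor on both arrays, but its summed signal was 3358 and 1106. The sum is mostly Ivl, the cornified envelope protein involucrin, which read 3110 and 683 (4.55-fold lower), whereas Krt77, an epidermal keratin, read 16.6 and 63.8 (3.84-fold higher).

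**Figure D5:**
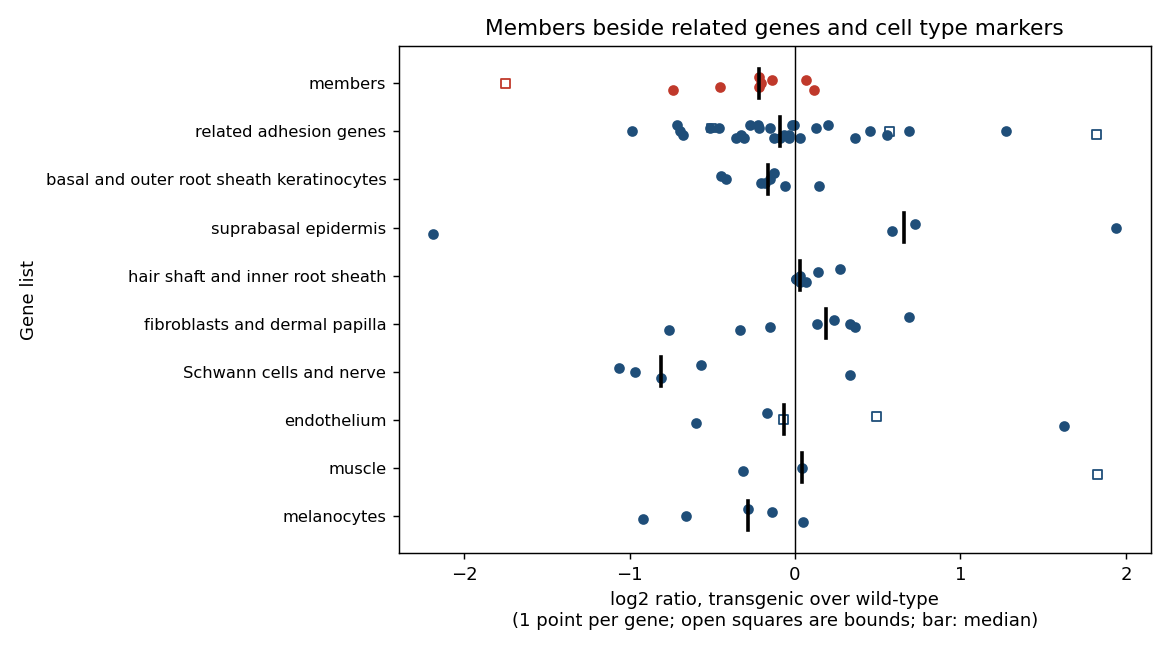
log2 ratio of transgenic to wild-type signal per gene (points; open squares are bounds against the floor) and the median (black bar) for the members, the related adhesion genes and the marker lists. The medians of the members (-0.22) and of the basal keratinocyte markers (-0.16, or 0.03 with equal spiked controls) are close, and that of the Schwann cell markers (-0.81) is lower.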

How the data were processed

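Total RNA of 2 pools of hair follicles was hybridised to 2 Affymetrix arrays following Affymetrix, per the labels. The deposited table gives linear intensities, already scaled by the authors to a 2% trimmed mean of 100.001 on each array, as the values show. The summary algorithm is not given in the sources used here. After leaving out 64 control probe sets, both arrays were rescaled to the same trimmed mean, and values under the floor were set to it. A call required a 2-fold difference with both signals above the floor. Names came from the platform annotation, and all 9 member symbols matched RefSeq (GRCm38.p6) by gene identifier. Promoter windows are from RefSeq.

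All probe sets of the members are given. From the related list, genes past 2-fold and the 6 with the largest absolute log2 ratio are named, with partners of the members (Cd151, Col7a1, Krt5 and Krt14). The members and lists were chosen with earlier results of these data known. Marker genes serve as description. Alternatives were equal medians, no rescaling, equal spiked controls (18 probe sets), quantile normalization, loess (span 0.3), floors at the 20th and 60th percentiles, a pseudocount, the mean over probe sets, no _s_at or _x_at probe sets, thresholds of 1.5-fold and 3-fold, and counting probe sets. The procedure was tested on simulated data with larger changes than those of the members measured on both arrays, and with less noise than the technical SD. That test therefore does not bear on ratios of the size reported here or on bounds against the floor. Python 3.11.15, pandas 2.3.3, numpy 2.4.6 and statsmodels 0.14.6 were used. With 1 array per group, the number of arrays limits the precision.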

Additional observations from a re-analysis of the deposited data

How the results depend on the processing

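The members' median log2 ratio, -0.22 as reported, was -0.36 with equal medians and -0.025 with equal spiked controls, moves that all genes share. Of 90 recomputed log2 ratios of single members, 5 had another sign than reported, all from ratios smaller than the technical SD, which is too wide to show whether such ratios are stable. The count of member genes at least 2-fold lower with both signals above the floor was 0 as reported and 1 with the floor at the 20th percentile, the gene being Lamb3, and it was 1 with a threshold of 1.5-fold, the gene being Itgb4. Lamb3 had a log2 ratio of -0.35 with the floor at the 60th percentile, since that floor of 27.7 is close to its wild-type signal of 35.3. The count of member genes at least 2-fold higher was 0 under all alternatives run. No paired analysis was possible because each group has 1 array, and no array could be left out. Itgb4, Col17a1 and Lamb3 rest on 1 probe set each, and Lamb3 and the Schwann cell markers are close to the floor, where ratios are least certain.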
